A study of Homo sapiens with 4 samples.

Results

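The retinoid receptors RARA, RARB and RARG, their partner receptors RXRA and RXRB, the vitamin D receptor VDR, the orphan receptors NR4A1 and NR4A3 and the corepressor NCOR1 were examined for ZNF217 occupancy in leukaemia cells. These 9 genes were taken by name, out of 19970 protein-coding genes on chromosomes 1 to 22 and X, and not by any measured value. Earlier results of these data were, however, known when the genes were chosen. ZNF217, a zinc finger protein known from CoREST and CtBP corepressor complexes, had been profiled by CUT&Tag, in which an antibody directs a transposase to cut the DNA around the bound protein. The series labelled a ZNF217 library and an IgG library from untreated MV4-11 cells, and the same from untreated U937 cells. MV4-11 and U937 are established human lines with monocytic features, both used by the study as models of acute myeloid leukaemia (AML), and each is a single line rather than a sample of AML. The ZNF217 peak lists were analysed, 1 library per line, and the IgG libraries were not analysed here. No difference between the lines therefore has a replicate check or a test.

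Retinoic acid receptors sit on DNA as heterodimers with a retinoid X receptor. Without ligand they hold corepressors such as NCOR1, which brings the histone deacetylase HDAC3, and with all-trans retinoic acid they exchange these for coactivators. In myeloid cells this switch drives granulocytic differentiation, and the fusion of PML with RARA blocks it in acute promyelocytic leukaemia. VDR pairs with RXR in the same way and promotes monocytic differentiation when bound by the active form of vitamin D. NR4A1 and NR4A3 are immediate early genes whose receptors need no known physiological ligand, and in mice the loss of both genes leads to a myeloid leukaemia. RARA was also among the candidate core circuit factors that the study selected from enhancer data, so that gene had already drawn the study's attention.

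A promoter peak was a called peak within 1 kb of any annotated transcription start site (TSS) of the gene, and a gene window was the gene body with 50 kb on each side. Sharing was set by overlap, and 1 bp in common with any peak from the other list was enough. The MV4-11 list held 37635 peaks and the U937 list 22521, and median widths on chromosomes 1 to 22 and X were 622 bp for MV4-11 and 689 bp for U937. On those chromosomes 40.4% of the MV4-11 peaks and 68.6% of the U937 peaks were shared. The narrowest peak measured 283 bp in MV4-11 and 330 bp in U937. Both lists give positions without heights or read counts, so the depth of each library is unknown, and more or wider peaks in MV4-11 cannot be told apart from deeper sequencing.

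Of the 9 genes, 8 had a promoter peak in MV4-11, 8 in U937 and 8 in both lines. Over all protein-coding genes the shares were 59.0% in MV4-11, 50.5% in U937 and 47.4% in both. RARB was the gene with a promoter peak in neither line. The counts rest on internal starts: with the 5′ end of the gene as its only start, 6 of the 9 genes had a promoter peak in MV4-11 and 4 in U937, where all genes stood at 52.5% and 44.3%, so the U937 count was then close to the share of all genes. The widest promoter peak of each occupied gene had median widths of 2053 bp (MV4-11) and 1222.5 bp (U937), against 1084 bp and 979 bp over all occupied genes of the same lines. With the 5′ end as the only start the medians were 1057.5 bp in MV4-11 and 1216 bp in U937, against 1068 bp and 970 bp over all occupied genes, and the MV4-11 excess was gone. RARA carried the widest in MV4-11, at 8470 bp, and RXRA the widest in U937, at 4081 bp. VDR carried the narrowest in U937, at 390 bp.

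**Figure D1:**
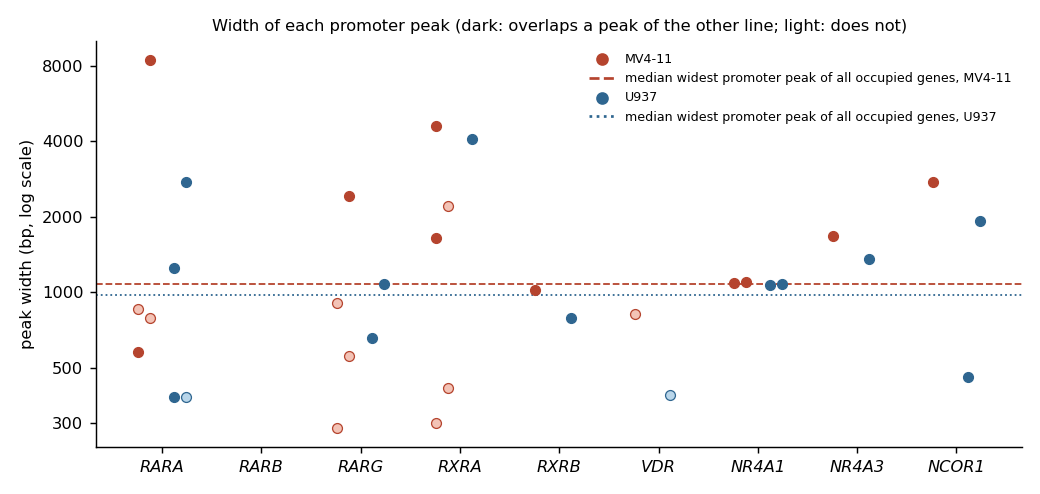
Width in bp, on a log scale, of every promoter peak of the 9 genes, with MV4-11 in red to the left of U937 in blue. Dark points are shared peaks and light points are not, and the lines mark the median widest promoter peak of all occupied genes (1084 bp in MV4-11, 979 bp in U937). RARA reached 8470 bp in MV4-11, RARB had no point in either line, and the VDR points (816 bp and 390 bp) were unshared in both.

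The windows of the 9 genes held 93 peaks in MV4-11 and 59 in U937. Of the MV4-11 peaks 42 were shared, or 45.2% (exact Clopper-Pearson 95% interval 34.8 to 55.8%, which covers counting error only). Of the U937 peaks 48 were shared, or 81.4% (69.1 to 90.3%). Both shares lay above those of the whole lists. For MV4-11 the whole-list share of 40.4% fell inside the interval, and for U937 that of 68.6% lay just below the lower bound of 69.1%. Peaks of the same window are not independent, which the intervals ignore, and RXRA alone gave 15 of the 48 shared U937 peaks. In MV4-11, 19 of the 93 peaks were promoter peaks of the gene itself, 42 lay elsewhere in the gene body, 16 lay at the promoter of another gene and 16 in the remaining flank. The same places held 14, 23, 9 and 13 of the 59 peaks in U937.

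Shared peaks were the wider ones in each line. Their median width was 1128.5 bp in MV4-11, where unshared peaks had a median of 534 bp, and 948 bp in U937, where unshared peaks had a median of 383 bp. The same order held over the whole lists, at 978 bp against 487 bp in MV4-11 and 823 bp against 462 bp in U937. In the MV4-11 windows 5 peaks were narrower than any peak of the U937 list. Where 1 MV4-11 peak overlapped exactly 1 U937 peak, which gave 38 pairs, the midpoints were a median of 122 bp and at most 654 bp apart. The MV4-11 peak was the wider in 25 of these pairs and the U937 peak in 13, with a median width ratio, MV4-11 over U937, of 1.13 (range 0.309 to 4.49).

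The number of peaks per window was uneven among the genes. RXRA had 33 peaks in MV4-11 and 15 in U937, RARA 15 and 16, and RARG 14 and 8. VDR had 11 and 6, and NR4A1 had 10 and 6. RXRB had 2 and 2, NR4A3 had 3 and 2, NCOR1 had 2 and 4, and RARB had 3 and 0. RARA and NCOR1 were the genes with more peaks in U937 than in MV4-11, although the U937 list is the shorter. In both genes 1 wide MV4-11 peak overlapped several U937 peaks, 4 at RARA and 2 at NCOR1, and each of these was counted. With peaks of at least 400 bp RARA had 14 in MV4-11 and 10 in U937, so its order was reversed, while NCOR1 kept 2 and 4. The median over the 9 genes was 10 peaks in MV4-11 and 6 in U937, where the median over all protein-coding gene windows was 3 and 2. The gaps between the lines depend on list length. With the widest 21737 peaks of each list, RXRA had 18 in MV4-11 and 15 in U937, RARG 10 and 8, and VDR 7 and 6. RARA then had 13 and 16 and RARB 0 and 0, and the counts of NR4A1, NR4A3, RXRB and NCOR1 did not change.

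**Figure D2:**
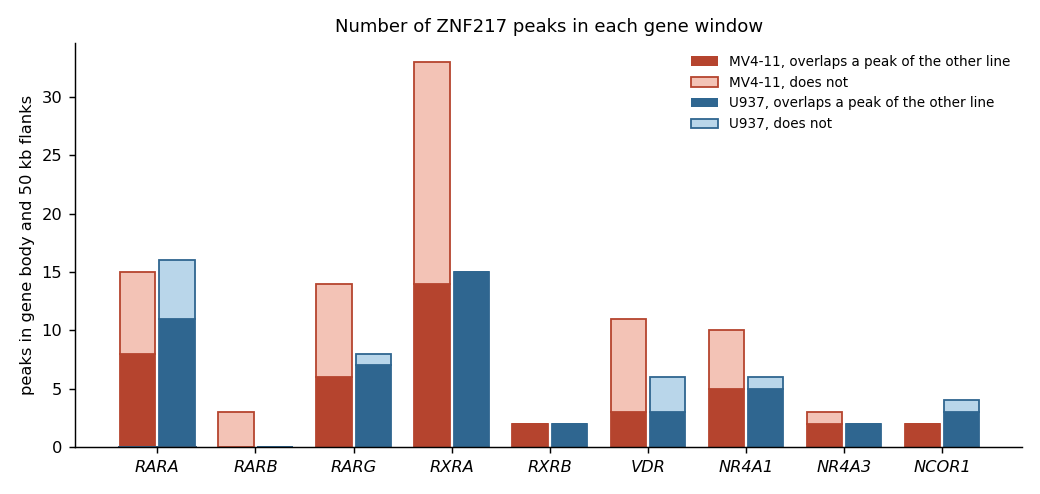
Number of peaks in each gene window (gene body and 50 kb flanks), MV4-11 in red to the left of U937 in blue, with shared peaks dark and unshared peaks light. RXRA stands highest in MV4-11 with 33 peaks, of which 14 were shared, and all 15 of its U937 peaks were shared.

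Windows differ in length, so the counts were also set per 100 kb. RARA had 10.1 peaks per 100 kb in MV4-11 and 10.8 in U937. RARG had 11.4 and 6.54, and RXRA 14.8 and 6.71. VDR had 5.46 and 2.98, NR4A1 7.32 and 4.39, NR4A3 2.07 and 1.38, and RXRB 1.87 in each line. The medians over all protein-coding gene windows were 1.96 and 1.35. In U937, 1.75% of all gene windows were at least as dense as that of RARA, while in MV4-11 the figure was 12.8%. For RXRA it was 5.98% in MV4-11 and 8.92% in U937, and for RARG 10.5% and 9.50%. At the other end RARB had 0.297 peaks per 100 kb in MV4-11 and none in U937, and NCOR1 had 0.692 in MV4-11 and 1.38 in U937. The RARA densities count 4 U937 peaks where MV4-11 had 1 wide peak. Several RARA peaks in U937 were also near the 330 bp minimum of that list. With peaks of at least 400 bp its U937 count fell from 16 to 10, and the share of windows at least as dense was not recomputed. By length, peaks covered 13.2% of the RARA window in MV4-11 and 8.20% in U937.

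RARA (chr17:40309180-40357643, plus strand, hg38) encodes the retinoic acid receptor that predominates in myeloid cells. A single MV4-11 peak of 8470 bp, at chr17:40316473-40324943, spanned 2 internal start clusters, the starts at 40318281 and 40318285 and the start at 40322991. U937 resolved the same stretch into 4 peaks of 1246, 381, 431 and 2744 bp. The peaks of 1246 and 381 bp lay within 1 kb of the upstream cluster, and the 2744 bp peak covered the start at 40322991. The most upstream start, at 40309180, had an 857 bp peak in MV4-11 and no promoter peak in U937. A start at 40345241 had the reverse, a 383 bp peak in U937 alone.

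Further into the RARA gene some peaks were shared and others were not. At 40327688, 40330007, 40333391, 40338063 and 40354756 MV4-11 had gene-body peaks of 654, 807, 1440, 527 and 644 bp, and U937 had overlapping peaks of 731, 472, 862, 753 and 781 bp. A 579 bp MV4-11 peak at 40352094 also met a U937 peak, of 507 bp. MV4-11 peaks at 40331115, 40341219, 40349518 and 40357064 (971, 792, 307 and 708 bp) and U937 peaks at 40325894 and 40345616 (381 and 383 bp) had no counterpart. In all, 8 of the 15 MV4-11 peaks and 11 of the 16 U937 peaks in the window were shared, beside 40.4% and 68.6% of the whole lists. Peaks covered 13.2% of the window in MV4-11 and 8.20% in U937. The neighbour CDC6, which loads the replicative helicase, had a shared promoter peak (MV4-11 1160 bp, U937 1414 bp). TOP2A, a DNA topoisomerase gene on the other side, had a 365 bp promoter peak in U937 alone.

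**Figure D3:**
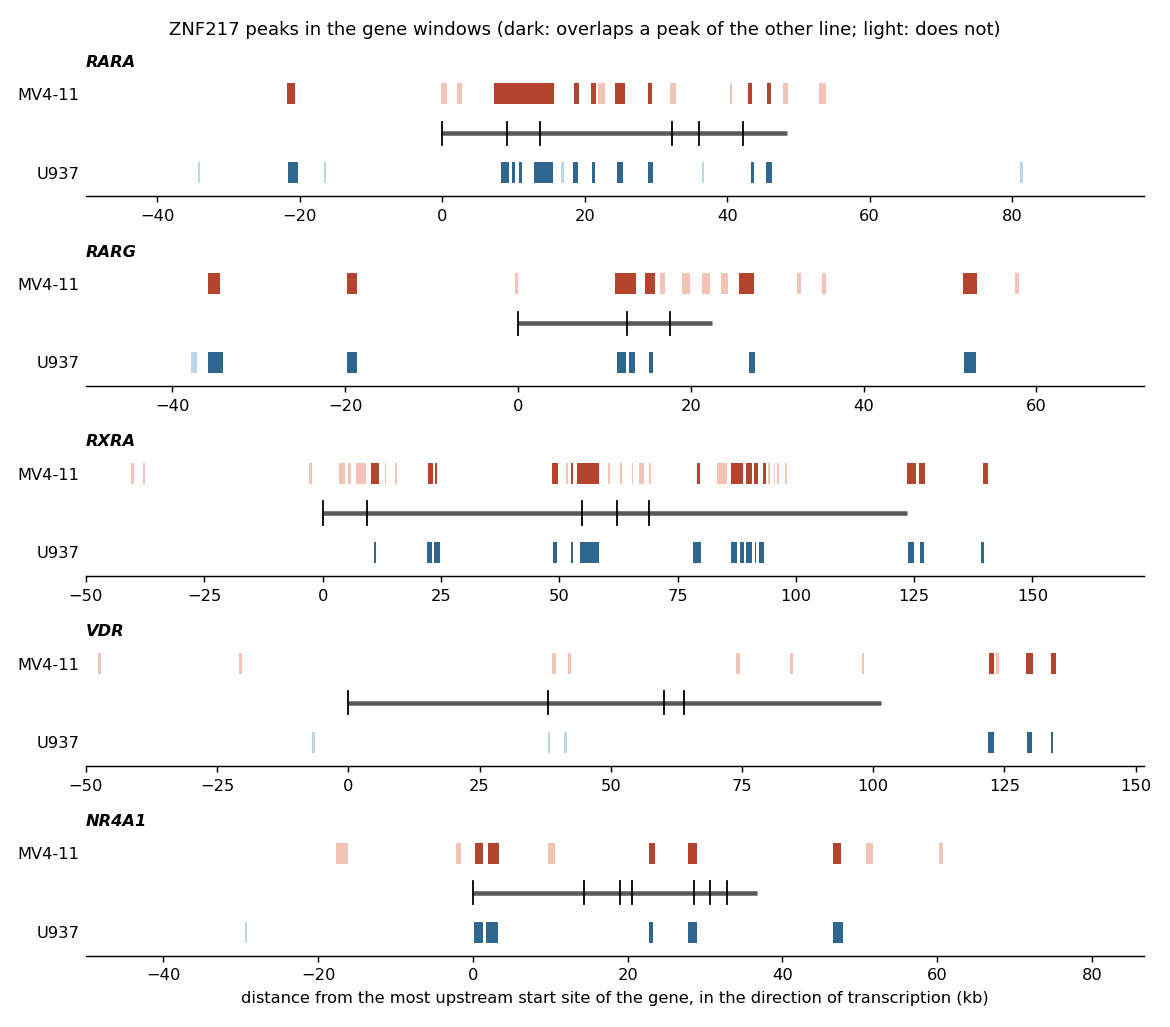
Peaks along RARA, RARG, RXRA, VDR and NR4A1 by distance in kb from the most upstream start, in the direction of transcription, with MV4-11 in red above the gene and U937 in blue below it. The grey bar is the gene, the ticks are clusters of start sites, and dark blocks are shared peaks. RARA shows the 8470 bp MV4-11 peak over 4 U937 peaks, and RXRA shows unshared peaks in MV4-11 alone.

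RARB (chr3:24687887-25597932, plus strand), the retinoic acid receptor whose internal promoter holds the textbook retinoic acid response element, was the gene with least signal. Its window is the longest of the 9, and it held 3 MV4-11 peaks of 359, 369 and 340 bp and no U937 peak. One of the MV4-11 peaks lay in the upstream flank and the other two in introns, and none was shared. The gene has 20 annotated starts in 9 clusters, and no cluster was within 1 kb of a peak in either line. The cluster at 24829323 to 24829340 has a promoter with a GC content of 76.7% and was also without a peak. At this unknown depth the absence of a called peak does not show the absence of ZNF217.

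RARG (chr12:53210567-53232980, minus strand), the retinoic acid receptor prominent in skin, was occupied at an internal promoter. A cluster of 4 starts between 53220084 and 53220413 was covered in MV4-11 by a 2425 bp peak, and in U937 peaks of 654 and 1082 bp met its edges, covering 1 of the 4 starts. The upstream cluster, where 12 transcripts begin, had a 286 bp peak in MV4-11 and none in U937. That peak is narrower than any in the U937 list. Another cluster, at 53214857 to 53215352, was flanked in MV4-11 by unshared peaks of 909 and 559 bp.

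The RARG window is crowded with other promoters, which held 7 of its 14 MV4-11 peaks and 3 of its 8 U937 peaks. Peaks at the promoters of CSAD and ZNF740 (1573 bp in MV4-11, 1459 bp in U937), MFSD5 (1120 bp and 1108 bp) and ESPL1, which encodes separase (1316 bp and 1736 bp), were shared. ITGB7, an integrin gene, had promoter peaks of 403, 500 and 1704 bp in MV4-11, while a 681 bp U937 peak that overlapped the widest of them lay outside the 1 kb limit.

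RXRA (chr9:134317098-134440585, plus strand), the partner on which RAR and VDR both depend, carried the most peaks of the 9 genes in MV4-11. Its widest peak was nearly the same interval in the 2 lines, chr9:134370840-134375431 in MV4-11 (4591 bp) and chr9:134371434-134375515 in U937 (4081 bp), with 3997 bp in common. It covered an internal start at 134371971. The 200 bases before that start are shown because this was the widest promoter peak of the U937 set. The capitals mark TGACG, the core of the cyclic AMP response element, and the plus strand of chr9:134371771-134371970 is given.
RXRA internal promoter: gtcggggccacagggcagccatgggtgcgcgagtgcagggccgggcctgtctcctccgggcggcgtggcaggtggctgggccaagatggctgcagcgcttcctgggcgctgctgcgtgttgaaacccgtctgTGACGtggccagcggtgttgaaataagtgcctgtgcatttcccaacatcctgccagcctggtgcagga

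The more upstream starts of RXRA were different. The start at 134317098 had no promoter peak in either line. The start at 134326455, in a promoter with a GC content of 84.0%, lay in the gap between a 2208 bp MV4-11 peak that ended at 134326338 and a 1653 bp MV4-11 peak that began at 134327326. U937 had 1 peak of 368 bp there, inside the 1653 bp peak and more than 1 kb from the start. Downstream, MV4-11 peaks of 414 and 302 bp beside the starts at 134379295 and 134386122 had no U937 counterpart.

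Most of the RXRA peaks lay in its introns. MV4-11 had 22 gene-body peaks outside promoters and U937 had 11. A run of 9 MV4-11 peaks between 134400513 and 134415224 faced 5 U937 peaks between 134403356 and 134410358. The widest of these in MV4-11 was 2594 bp and overlapped U937 peaks of 1266 and 727 bp. The 4 MV4-11 peaks at the downstream end of the run, from 344 to 449 bp wide, were unshared. Beyond the gene, 3 peaks were shared, with widths of 1748, 1299 and 1039 bp in MV4-11 and 1313, 876 and 695 bp in U937. All 15 U937 peaks in the RXRA window were shared, and 14 of the 33 MV4-11 peaks were, beside 68.6% and 40.4% of the whole lists.

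RXRB (chr6:33193588-33200665, minus strand), the more broadly expressed partner receptor, is short and held 1 promoter peak in each line. The peak at its 3 upstream starts measured 1020 bp in MV4-11, against 786 bp in U937, with 669 bp in common, and it also met the promoter of SLC39A7, a zinc transporter gene that begins beside RXRB. The other peak of the window, 1042 bp in MV4-11 and 871 bp in U937, was shared and lay in the upstream flank. The gene lies in the major histocompatibility region, of which hg38 holds alternate copies, and 5 alternate chromosome 6 sequences carry RXRB at about 99.9% identity. Reads from this promoter can align to any of them, so its peak width is uncertain.

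VDR (chr12:47841537-47943048, minus strand) had a promoter peak in each line, and these did not overlap. The promoter concerned is a cluster of 5 starts between 47904994 and 47905040. In U937 a 390 bp peak, chr12:47904680-47905070, covered all 5 starts. In MV4-11 an 816 bp peak, chr12:47903534-47904350, lay on the transcribed side and reached none of them. The facing ends of these peaks were less than 500 bp apart, so their unshared state rests on the 1 bp rule.

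Elsewhere in the VDR gene no peak was shared either. MV4-11 had 4 gene-body peaks of 321, 424, 773 and 529 bp and U937 had 1 of 494 bp. The 529 bp and 494 bp peaks were likewise less than 500 bp apart. The upstream start at 47943048 and the starts at 47882935 and 47879115 had no promoter peak in either line. The shared peaks of the window, 3 in each line, lay around HDAC7, which encodes a class IIa histone deacetylase. Their widths were 987, 1361 and 1001 bp in MV4-11 and 374, 965 and 1147 bp in U937. TMEM106C had a 702 bp promoter peak in MV4-11 alone.

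NR4A1 (chr12:52022832-52059507, plus strand), also called Nur77, had promoter peaks of nearly the same extent in MV4-11 and U937. At its upstream start the peak was chr12:52023057-52024152 in MV4-11 and chr12:52023026-52024095 in U937. At the start cluster from which 7 transcripts begin it was chr12:52050659-52051753 in MV4-11 and chr12:52050676-52051751 in U937. The widths were 1095 and 1094 bp in MV4-11, against 1069 and 1075 bp in U937. The other 5 start clusters of the gene had no peak within 1 kb in either line. An intron peak beside the upstream start was also shared, at 1372 bp in MV4-11 against 1546 bp in U937.

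A further NR4A1 intron peak began at the same deposited position in both lists, 52045614, and was 687 bp wide in MV4-11 and 454 bp in U937. It is the one window peak of the 9 genes whose centre held the NR4A element, AAAGGTCA, the monomer site of these receptors. That is 1 of 93 window peaks in MV4-11 (1.08%), against 1.06% of all MV4-11 peaks. In U937 it is 1 of 59 (1.69%), against 0.897% of all U937 peaks. A single place does not show that the element is frequent in these windows. The stretch chr12:52045773-52045922 is given on the plus strand, on which the element reads as its reverse complement, in capitals.
NR4A1 intron: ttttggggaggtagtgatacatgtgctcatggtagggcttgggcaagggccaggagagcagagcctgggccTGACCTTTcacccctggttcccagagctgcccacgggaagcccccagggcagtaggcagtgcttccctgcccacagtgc

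Around NR4A1, the autophagy gene ATG101 had a shared promoter peak (MV4-11 1069 bp, U937 1192 bp). TAMALIN had a 1587 bp promoter peak in MV4-11 alone.

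NR4A3 (chr9:99821855-99866891, plus strand), also called NOR1, had its peaks at the upstream start and none in the rest of the gene. The promoter peak was chr9:99820838-99822519 in MV4-11 (1681 bp) and chr9:99821136-99822499 in U937 (1363 bp), and the U937 peak lay wholly within the MV4-11 one. Just upstream lay a further shared peak, 1137 bp in MV4-11 and 931 bp in U937. STX17, a syntaxin gene, had a 742 bp promoter peak in MV4-11 alone. The 150 bases before the start (chr9:99821705-99821854, plus strand, 66.0% GC) are shown because they lie under the shared NR4A3 promoter peak. The capitals mark TGACG and its reverse complement CGTCA, through which cyclic AMP signalling is known to act.
NR4A3 promoter: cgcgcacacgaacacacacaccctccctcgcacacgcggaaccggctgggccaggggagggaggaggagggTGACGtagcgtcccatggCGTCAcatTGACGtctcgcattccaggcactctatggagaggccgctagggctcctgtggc

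The NR4A3 stretch held 3 copies of the core. Among the 33 starts of the 9 genes that were occupied in both lines, 8 held it in the 300 bases from 250 before to 50 after the start. Over all starts of the 9 genes it was in 22 of 115 (19.1%), and over all protein-coding starts in 23.8% of 146163, so it was not frequent in this gene set as a whole. NR4A1 and NR4A3 starts that lie close together share these sequences and are not independent.

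NCOR1 (chr17:16029065-16218185, minus strand), the corepressor that unliganded RAR recruits, was occupied at its upstream end only. A 2752 bp MV4-11 peak, chr17:16214843-16217595, covered 8 starts between 16215401 and 16215915. U937 had peaks of 461 and 1918 bp over the same stretch, with a gap in which 7 of those starts fell. The promoter of PIGL, which lies head to head with NCOR1, was met by the 2752 bp MV4-11 peak and the 1918 bp U937 peak. The remaining 10 of its 12 start clusters and the whole of the rest of the gene body held no peak in either line. The peaks at the shared promoter of TTC19 and ZSWIM7, beyond the downstream end, were 1319 bp in MV4-11 and 1368 bp in U937 and overlapped.

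Across the 9 genes the 115 annotated starts formed 51 clusters, in which neighbours were no more than 1 kb apart. A peak lay within 1 kb of 19 clusters in MV4-11, 12 in U937 and 11 in both, and 31 had none in either line. Clusters were not formed for all genes, so the comparison is by start. Of the 115 starts 56 were occupied in MV4-11, 34 in U937 and 33 in both. Of all 146163 protein-coding starts, 67122, 56103 and 52817 were. By start the 9 genes were thus near all genes in MV4-11 and below them in U937 and in both lines. The most upstream cluster was occupied in 6 of the 9 genes in MV4-11 and in 4 of 9 in U937, beside 52.5% and 44.3% of all genes at the 5′ end of the gene. In MV4-11 these were RARA, RARG, RXRB, NR4A1, NR4A3 and NCOR1, and in U937 RXRB, NR4A1, NR4A3 and NCOR1. RARA, RARG, RXRA and VDR had U937 promoter peaks at internal starts and none at the most upstream cluster. Annotated starts come from many tissues, and which of them these cells use was not measured.

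Occupied starts were richer in GC. Starts of the 9 genes occupied in both lines had a median of 67.0% GC (n = 33) in the 300-base promoter, and the remaining starts 57.7% (n = 82). Over all protein-coding starts the medians were 65.3% and 52.0%. In the richest class, with 70% GC or more, 19 of 24 starts of the 9 genes were occupied in MV4-11 and 13 of 24 in U937, or 79.2% and 54.2%, where the shares over all starts were 73.0% and 61.4%. With less than 50% GC, 1 of 32 starts (3.13%) was occupied in MV4-11 and 1 of 32 in U937, where the shares over all starts were 10.1% and 7.17%. Nearly all of these 32 starts belong to RARB or NCOR1. Many starts of a gene lie close together and share sequence and peaks, so starts are not independent and these shares largely describe single genes.

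The sequence that RAR, RXR and VDR read is a hexamer, searched here as AGGTCA or AGTTCA or GGGTCA or GGTTCA on both strands, and its direct repeats. Repeats with 5 bases between are the classic retinoic acid response element, and repeats with 3 bases between the vitamin D response element. The hexamer was in 25 of the 115 promoters of the 9 genes (21.7%), against 39.7% of all 146163 promoters of the same length, and in 3 of the 33 that were occupied in both lines. The repeat with 5 bases between was in 4 of the 115, against 0.0499% of all promoters, or 73 in number. Of these 4, 3 were overlapping RARB promoters that hold the same element, and the other was RXRB. None of the 4 was occupied. Promoters of close starts in a gene overlap, so the 115 are not independent.

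These repeats are shown with the hexamers in capitals, because the unoccupied and the occupied ones can be compared base by base. The RARB element (chr3:25428204-25428233, plus strand) lies at position -53 from the start at 25428263 and had no peak within 1 kb in either line. The RXRB element (chr6:33195465-33195494) lies upstream of an internal start at 33195360 without a peak, and on the minus strand shown here its hexamers read as TGACCT. The RARA element (chr17:40341647-40341676, plus strand) lies under the 792 bp MV4-11 promoter peak, chr17:40341219-40342011, which had no U937 counterpart.
RARB direct repeat: gggtagGGTTCAccgaaAGTTCActcgcat
RXRB direct repeat: tgagctgTGACCTttgagTGACCTgcaggt
RARA direct repeat: caggcgAGTTCAgcgagAGTTCAgccgcat

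A repeat with 3 bases between was in none of the 115 promoters (0.0664% of all promoters). At the centre of the window peaks it was in 0 of 93 in MV4-11, against 0.105% of all MV4-11 peaks. In U937 it was in 0 of 59, against 0.0874% of all U937 peaks. Away from the peak centres it was found in 1 place, inside the 8470 bp RARA peak of MV4-11 and the 431 bp RARA peak of U937. No share over the full length of all peaks is given here, so this match has no background. The bases around the RARA repeat (chr17:40319966-40320115, plus strand) are intronic and carry the hexamers in capitals.
RARA intron: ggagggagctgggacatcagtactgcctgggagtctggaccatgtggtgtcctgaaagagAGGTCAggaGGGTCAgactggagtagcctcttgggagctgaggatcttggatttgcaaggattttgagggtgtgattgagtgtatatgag

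In the central 300 bases of the window peaks the hexamer was present in 39 of 93 in MV4-11 (41.9%, against 46.1% of all MV4-11 peaks) and in 30 of 59 in U937 (50.8%, against 46.9% of all U937 peaks). GAGGAA, a core of the site for the myeloid factor PU.1, was in 31 of 93 in MV4-11 (33.3%, against 30.6%) and in 25 of 59 in U937 (42.4%, against 29.4%). CAGAAC or CAGAAT, the element reported for ZNF217 itself, was in 29 of 93 in MV4-11 (31.2%, against 26.5%) and in 15 of 59 in U937 (25.4%, against 24.1%). Such short matches are common by their length and are given as a description of the sequence only.

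Of 40 other receptor genes, 15 had a promoter peak in MV4-11 (37.5%), 16 in U937 (40.0%) and 13 in both (32.5%), and 22 had none. These shares were below those of all genes, at 59.0%, 50.5% and 47.4%. NR1D1, the circadian repressor that lies near RARA and THRA, had a 3460 bp peak in MV4-11 and peaks of 715 and 1313 bp in U937. The liver X receptor genes NR1H3 (widest peak 3024 bp in MV4-11 and 2346 bp in U937) and NR1H2 (2809 bp and 1537 bp), and the fatty acid receptor genes PPARA (595 bp and 384 bp) and PPARD (792 bp and 984 bp), were occupied in both lines. The thyroid hormone receptor gene THRA (693 and 1586 bp) and the adipogenic receptor gene PPARG (308 and 327 bp) had promoter peaks in MV4-11 alone, while RORB (1040 bp), NR2C1 (349 bp) and NR2F2 (648 bp) had them in U937 alone. THRB, RORA, the bile acid receptor gene NR1H4 and the xenobiotic receptor genes NR1I2 and NR1I3 were among those with none.

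Of 9 corepressor genes 9 had a promoter peak in MV4-11 (100%) and 7 in U937 (77.8%), where all genes stood at 59.0% and 50.5%. HDAC3, the deacetylase of the NCOR complex, had 2529 bp in MV4-11 and 2091 bp in U937, and TBL1XR1, another core subunit, 1840 bp and 1786 bp. TBL1X, GPS2 and SIN3A were also occupied in both, and SIN3B (926 and 713 bp) and NRIP1 (2181 bp) in MV4-11 alone. Of 11 coactivator genes 11 had a promoter peak in MV4-11 (100%) and 9 in U937 (81.8%), beside the same shares of all genes. The steroid receptor coactivator gene NCOA2 had 2684 bp in MV4-11 and 2568 bp in U937, and the acetyltransferase gene EP300 had 1610 bp in MV4-11 and 826 and 459 bp in U937. NCOA3, NCOA6, CREBBP and KAT2A were also occupied in both, and NCOA1 and CARM1 in MV4-11 alone.

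Of 17 genes for retinoid transport and metabolism 7 had a promoter peak in MV4-11 (41.2%) and 5 in U937 (29.4%), shares below those of all genes, and all 5 were occupied in both. These were the retinol dehydrogenase gene RDH10 (2715 bp in MV4-11, 2535 bp in U937), RDH11 (992 bp and 942 bp), the retinaldehyde reductase gene DHRS3 (widest 1439 bp and 2370 bp), the retinoic acid synthesis gene ALDH1A2 (widest 1325 bp and 621 bp) and the lipid carrier gene FABP5 (1615 bp and 1241 bp). DHRS9 and the retinoic acid hydroxylase gene CYP26B1 were occupied in MV4-11 alone. STRA6, LRAT, ALDH1A1, ALDH1A3 and CYP26A1 were among those with no promoter peak. Of 5 vitamin D genes 3 had one in MV4-11 (60%) and 1 in U937 (20%), where all genes stood at 59.0% and 50.5%. CYP2R1, a 25-hydroxylase gene, was occupied in both (1488 bp in MV4-11, 1866 bp in U937), CYP27A1 (480 bp) and CYP27B1 (580 bp) in MV4-11 alone, and the catabolic gene CYP24A1 and the carrier gene GC in neither.

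Genes known to respond to retinoids or vitamin D in myeloid cells had a promoter peak in 10 of 11 cases in MV4-11 (90.9%) and 7 of 11 in U937 (63.6%). All genes stood at 59.0% and 50.5%. Those occupied in both included the granulocytic factor CEBPE (2234 bp in MV4-11, 974 bp in U937), ICAM1 (2773 bp and 2641 bp), CAMP, which encodes cathelicidin (842 bp and 342 bp), THBD (3365 bp and 3089 bp) and the cell cycle inhibitor CDKN1A (2677 bp and 2191 bp). TGM2 (621 bp), CD38 (1611 bp), CD14 (415 bp) and FBP1 (514 bp) were occupied in MV4-11 alone, and ASB2, with peaks of 469, 719, 969 and 585 bp, in U937 alone. With 1 library per line, no test bears on these differences.

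Marker genes could be compared with the labelled cell type by occupancy only, and expression was not measured in these lists. Of 10 monocyte and myeloid genes 8 had a promoter peak in MV4-11 (80%) and 4 in U937 (40%), and the U937 share was below the 50.5% of all genes, so these markers give no support to the label in U937. SPI1, which encodes PU.1, CSF1R, CD33 and ITGAM were occupied in both, and CSF2RA, CD14, MPO and FCGR1A in MV4-11 alone. CSF3R and LYZ were without a promoter peak in either line. Of 10 genes of other lineages 3 were occupied in MV4-11 (30%) and 2 in U937 (20%), where all genes stood at 59.0% and 50.5%. CD79A and EPOR were occupied in both, while CD3E, CD3D, GATA1, HBA1, HBB and ALB had none.

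**Figure D4:**
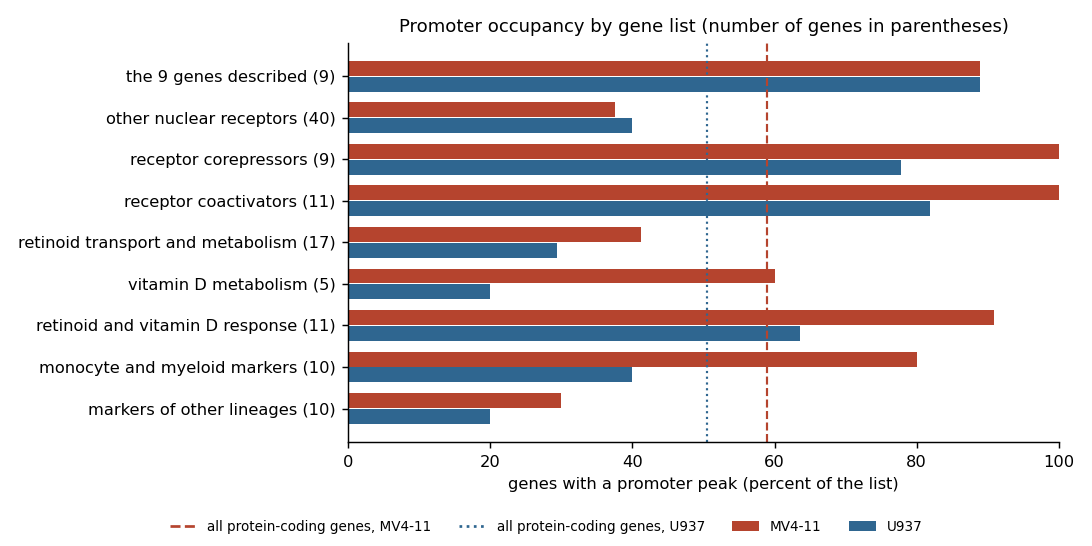
Percent of the genes in each list with a promoter peak, MV4-11 in red above U937 in blue, with the number of genes in parentheses. The dashed and dotted lines mark all protein-coding genes (59.0% in MV4-11, 50.5% in U937). The corepressor and coactivator bars reach the end of the axis in MV4-11, and the bars for other nuclear receptors, retinoid transport and metabolism and markers of other lineages end short of the line of their own cell line. So do the U937 bars for vitamin D metabolism and for monocyte and myeloid markers.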

How the data were processed

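Groups were taken from the sample titles. The deposited lists, of a unit other than a signal, give chromosome, start and end of each peak in bp, with no score, fold, height or count. Per the methods and the submitters' processing notes, the authors aligned paired-end reads to hg38 with Bowtie2 2.4.4 and called peaks per library with MACS3 3.0. Use of the IgG library as control, duplicate removal and blacklist filtering were not given in the sources used here. Whether starts count from 0 was not stated, so positions are printed as deposited and a start may be off by 1 bp.

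Genes and starts came from GENCODE 44 on hg38, whose sequence names matched those of the lists. Peaks were assigned with Python 3.11.15, pandas 2.3.3 and SciPy 1.17.1, and the overlap code was tested on simulated data. Sequences were read from hg38 with samtools 1.23.1, and RXRB copies were aligned with minimap2 2.31. A wider peak reflects the caller and the depth as well as the protein. The intervals are exact Clopper-Pearson 95% intervals for counting error. No test was run, because there was 1 library per line.

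The genes, lists and alternatives were chosen with earlier results of these data known. Named were the 9 genes, the leading 6 genes in list order of each occupancy class in each list, every protein-coding gene with a promoter peak inside a window, and the 3 widest window peaks of each line. Alternatives changed the promoter width, the starts used, the flank, the overlap rule, the minimum width, the list length and the merging of peaks. Some items that this rule names are not reported here.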

Additional observations from a re-analysis of the deposited data

Results flagged for a closer look

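Peaks were also listed at copies of RXRB on alternate chromosome 6 sequences, which the comparisons above do not use. In MV4-11 there were 5 such peaks within 1 kb of the copies, 1 on each of 5 sequences, with widths from 722 to 1116 bp, and in U937 there were likewise 5, with widths from 569 to 1061 bp. The peak at RXRB on chromosome 6 itself was 1020 bp in MV4-11 and 786 bp in U937. No control library was analysed here, and these peaks stand in the list without any read count.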

How the results depend on the processing

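No paired analysis was possible because there was 1 library per line and no test. Of 166 values recomputed for whole gene sets, 150 stayed within 1.5 times the main value, or within its interval for shares, and 16 did not. Of 198 values recomputed for single genes, 161 stayed within 1.5 times the main value and 37 did not. With 1 start per gene, the 5′ end of the gene, 6 of the 9 genes had a promoter peak in MV4-11 and 4 in U937, beside 52.5% and 44.3% of all genes, the median widest promoter peak in MV4-11 was 1057.5 bp, and the counts were 4 retinoid genes and 1 vitamin D gene in MV4-11 and 1 gene of other lineages in U937. With promoters of 3 kb on each side, 2 vitamin D genes were occupied in U937, where 10677 of all 19970 genes were. With no flank the windows held 60 peaks in MV4-11 and 37 in U937 (medians 5 and 2), and with 100 kb flanks U937 had 91 (median 11). A reciprocal overlap of 50% gave shared shares of 31.2% in MV4-11 and 49.2% in U937. With the widest 21737 peaks of each list, 60% of the MV4-11 peaks were shared. Merging peaks less than 500 bp apart raised the median widest U937 promoter peak to 2428 bp. Window medians, whole-list shared shares and promoter widths over all genes were not recomputed under these flank, overlap, list-length and merging settings. The values given for them therefore have no background, and the main backgrounds do not apply to them. Whether any excess of the 9 genes remained under them was not tested. With promoters of 500 bp VDR lost its MV4-11 promoter peak, and with peaks of at least 400 bp its U937 one. Depth is unknown, which limits every absence of a peak.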
